A study of Homo sapiens with 4 samples.

Results

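HSF1 and 9 chaperone and co-chaperone genes of the cytosolic heat shock response were followed after RPMI 8226 cells, a human myeloma line, received an antisense oligonucleotide against the long noncoding RNA LINC01432. The 10 genes were taken by symbol (HSF1, HSPA1A, HSPA1B, HSPA8, HSPH1, DNAJB1, BAG3, HSP90AA1, HSP90AB1 and HSPB1) from the 78932 gene rows of the deposited count table, and all 10 were found. They were not chosen by a threshold on a measured value. All 10 passed the filter on low counts, so they stand among 18680 genes tested.

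The cells of the LINC01432 LNA group had been transfected for 72 h with 50 nM of an LNA (locked nucleic acid) antisense oligonucleotide against LINC01432, with 2 libraries titled ASO3. The control LNA group received a control LNA, with 2 libraries titled ASO1, and the labels do not state its dose separately. Both groups are the same cell line and both were transfected, and no untransfected cells were analysed here. Nothing in the labels ties the libraries of a group to separate cultures. The p-values therefore cover the spread between these libraries alone, which may be technical.

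Heat shock proteins are chaperones that bind unfolded or partly folded proteins and either refold them or hand them on for degradation. Plasma cells and the myeloma cells derived from them make large amounts of immunoglobulin and are known to lean on such chaperones. HSF1, the main transcription factor of the heat shock response, is held inactive by chaperones in unstressed cells. When unfolded proteins draw those chaperones away, it forms trimers, binds heat shock elements (inverted repeats of the unit GAA and its complement TTC) and raises the transcription of inducible chaperone genes. HSPA8 and HSP90AB1 are the constitutive HSP70 and HSP90 of the cytosol, HSPA1A, HSPA1B and HSP90AA1 are their stress-inducible counterparts, and DNAJB1, HSPH1 and BAG3 are co-chaperones of HSP70. HSPB1 (HSP27) is a small heat shock protein that holds unfolded proteins without using ATP.

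Promoters are shown for the near-identical HSPA1A and HSPA1B genes, for the most abundant HSP70 and HSP90 genes and for HSPB1. Each sequence below is the 250 bases before the RefSeq start (GRCh38.p14), read 5′ to 3′ on the strand of the gene, with matches to the heat shock element in capitals.
HSPA1A (chr6:31815293-31815542, plus strand): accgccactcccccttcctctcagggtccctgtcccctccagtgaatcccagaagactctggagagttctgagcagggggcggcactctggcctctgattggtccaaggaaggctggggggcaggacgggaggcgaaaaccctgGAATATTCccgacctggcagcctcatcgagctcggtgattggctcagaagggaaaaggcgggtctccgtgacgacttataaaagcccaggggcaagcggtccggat
HSPA1B (chr6:31827488-31827737, plus strand): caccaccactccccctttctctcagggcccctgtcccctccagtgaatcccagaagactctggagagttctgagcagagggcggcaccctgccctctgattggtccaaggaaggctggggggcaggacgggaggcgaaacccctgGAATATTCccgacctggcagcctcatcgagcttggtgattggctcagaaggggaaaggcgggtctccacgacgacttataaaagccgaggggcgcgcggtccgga
HSPA8 (chr11:123062137-123062386, minus strand): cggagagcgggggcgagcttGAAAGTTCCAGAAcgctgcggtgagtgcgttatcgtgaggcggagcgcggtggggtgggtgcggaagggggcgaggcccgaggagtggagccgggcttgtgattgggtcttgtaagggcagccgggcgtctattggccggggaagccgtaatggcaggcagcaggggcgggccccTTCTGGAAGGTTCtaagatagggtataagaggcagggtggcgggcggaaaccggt
HSP90AA1 (chr14:102087045-102087294, minus strand): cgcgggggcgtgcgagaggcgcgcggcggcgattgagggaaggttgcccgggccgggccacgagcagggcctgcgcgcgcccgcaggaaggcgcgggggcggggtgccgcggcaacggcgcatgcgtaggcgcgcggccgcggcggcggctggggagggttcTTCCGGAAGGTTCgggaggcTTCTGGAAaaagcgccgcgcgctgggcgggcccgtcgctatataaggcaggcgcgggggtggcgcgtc
HSP90AB1 (chr6:44247693-44247942, plus strand): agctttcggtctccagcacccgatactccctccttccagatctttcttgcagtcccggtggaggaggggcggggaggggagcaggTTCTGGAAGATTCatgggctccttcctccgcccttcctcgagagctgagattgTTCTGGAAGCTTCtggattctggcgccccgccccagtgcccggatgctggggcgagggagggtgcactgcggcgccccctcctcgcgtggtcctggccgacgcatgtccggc
HSPB1 (chr7:76302423-76302672, plus strand): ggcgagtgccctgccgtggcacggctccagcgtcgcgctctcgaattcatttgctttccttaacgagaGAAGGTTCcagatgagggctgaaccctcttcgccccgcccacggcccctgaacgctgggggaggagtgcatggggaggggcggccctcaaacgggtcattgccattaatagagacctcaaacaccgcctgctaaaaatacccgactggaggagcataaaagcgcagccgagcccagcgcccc

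The capitals mark GAANNTTC or TTCNNGAA, the 2-unit elements, each of which reads the same on both strands. A 3-unit element carries a further GAA or TTC after 2 more bases, was searched on both strands, and contains both 2-unit forms. A 2-unit match is common, being present in 11.6% of all 35116 promoter windows of that table, whereas a 3-unit match is present in 0.441% of them. Of the 10 genes, 9 had a window in the table, with 14 windows in all. A 3-unit match was found for 3 genes: HSPA8 held 2 in its window, HSP90AB1 held 2 in the window shown and HSP90AA1 held 1 in the window shown. The other windows of the HSP90 genes, which are not shown, held no match in these letters. The HSPA8 window and both HSP90 windows shown lie inside their annotated genes. These genes begin at position 123063230 (HSPA8, minus strand), 44246166 (HSP90AB1) and 102139699 (HSP90AA1, minus strand). The windows of HSPA1A, HSPA1B and HSPB1 run past the annotated starts of their genes. HSPA1A, HSPA1B, HSPB1 and DNAJB1 had 2-unit matches only, and no match was found in these windows for HSPH1 and BAG3. The HSPA1A and HSPA1B windows were identical at 93.6% of 251 aligned positions, and each held a single 2-unit match in the same sequence context. A match describes the letters of a window and does not show that HSF1 was bound there in these cells.

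The libraries held 20873393 to 29161298 gene counts. LINC01432, the targeted RNA, had 8.997 and 9.90 CPM (counts relative to library size, scaled by the TMM method) with LINC01432 LNA against 20.5 and 17.9 CPM with control LNA (log2 fold change -1.02, edgeR adjusted p = 0.000228). Plasma cell and myeloma markers fitted the labelled cell type, with 11 of 12 at a mean of 1 CPM or more and IGLL5 at 0. Of 17 markers of T, myeloid, epithelial, fibroblast and endothelial cells, 7 reached 1 CPM, among which EPCAM (49.8 to 60.9 CPM) and KRT18 (45.4 to 55.0 CPM) were the highest, and LYZ was at 0. Their summed level was 110.0 and 112 CPM with LINC01432 LNA and 126 and 122 CPM with control LNA, while that of the myeloma markers was 4435 and 6226 CPM with LINC01432 LNA and 4867 and 5380 CPM with control LNA. IGLC2, at 1261 and 2749 CPM with LINC01432 LNA and 1267 and 1582 CPM with control LNA, carried most of the gap between the sums of the LINC01432 LNA libraries. CD38 was called higher with LINC01432 LNA and TNFRSF17 lower, with and without GC correction. COL1A1 was called higher and XBP1 lower in edgeR, but neither after GC correction (edgeR adjusted p = 0.0817 and 0.0823) or without control LNA library 1 (0.274 and 0.359). The part of these markers in the results was not tested. In such bulk libraries a lower level of an RNA in each cell and fewer cells that hold it cannot be told apart.

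The libraries address which transcripts differ between cells given the LNA against LINC01432 and cells given the control LNA. Lowering of LINC01432 and other effects of its LNA cannot be told apart here, as both LINC01432 LNA libraries are titled ASO3. Among the heat shock genes, HSPA1B and HSPB1 rose, by 1.41-fold and 1.34-fold, and the other 8 did not pass the test. Thus 2 of 10 members were called higher, against 7.5% of all genes tested, and 11.9% of all genes were called in either direction (edgeR quasi-likelihood test, with a Benjamini-Hochberg adjusted p below 0.05). With all 4 libraries none of the members was called lower, where 4.37% of all genes were: 0 had an unadjusted p under 0.05 in that direction, and DESeq2 and limma-voom called 0 as well, with 8.68% and 11.6% of all genes called by them in either direction. The median log2 fold change was 0.07 over the 10 members and 0.01 over all genes tested. Both calls ended when a trend of expression on GC content was removed, after which 0 of 10 members were called against 10.1% of all genes (edgeR, with 1 higher and 1 lower member at an unadjusted p under 0.05).

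**Figure D1:**
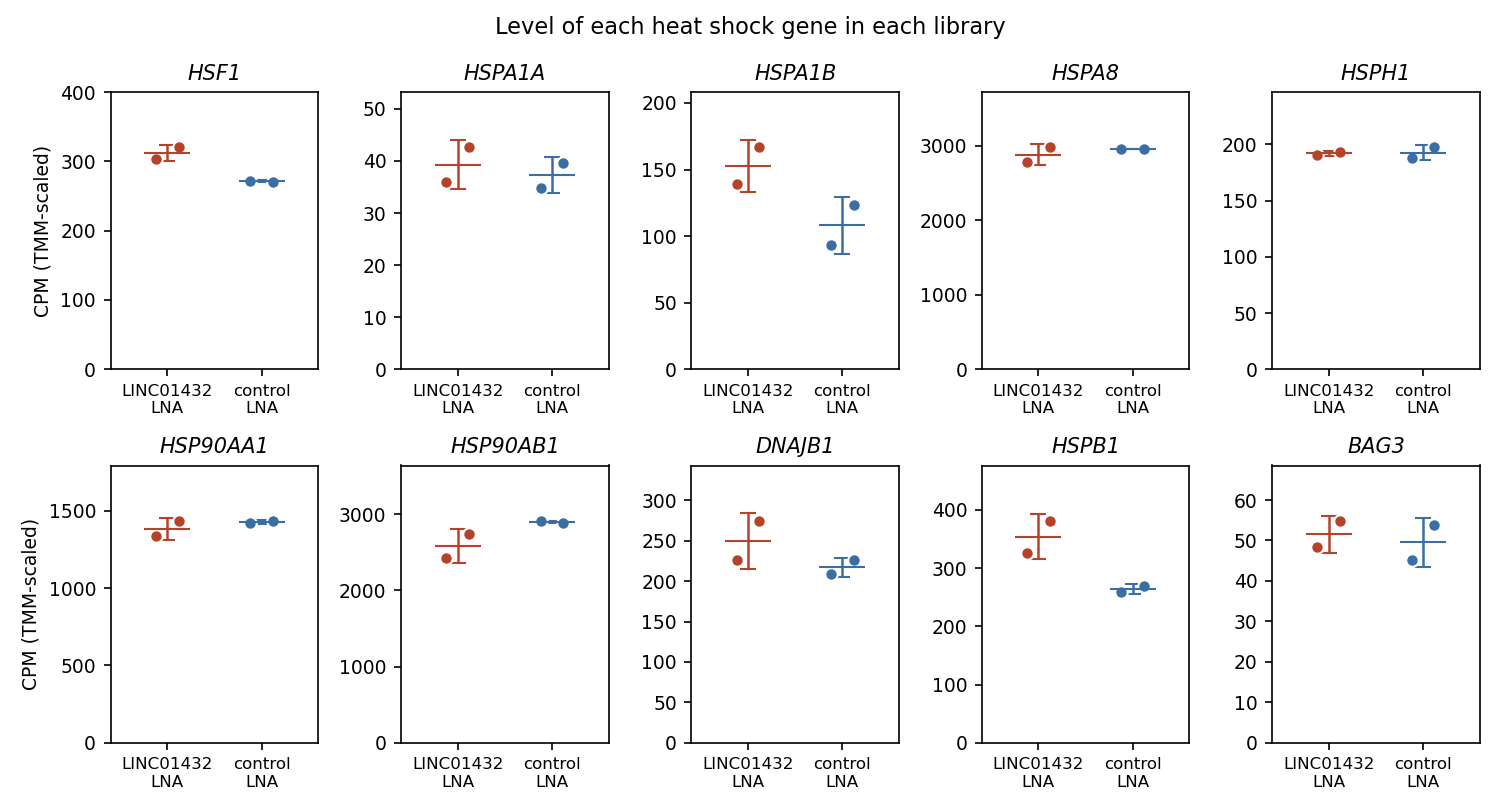
Level of each heat shock gene in CPM, scaled by TMM, for the 2 LINC01432 LNA libraries (left, red) and the 2 control LNA libraries (right, blue). Points are libraries, the horizontal marks are means and the bars are SD (n = 2). HSPB1, HSPA1B and HSF1 lay above both control libraries in both LINC01432 LNA libraries, and HSP90AB1 lay below them.

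HSF1 (ENSG00000185122, GRCh38 chromosome 8 from 144291591 to 144314722, plus strand) had 304 and 320.1 CPM with LINC01432 LNA, against 272 and 271 CPM with control LNA. Both LINC01432 LNA libraries were above both controls, yet the difference was small. The mean was 312 ± 11.6 CPM with LINC01432 LNA and 271 ± 1.23 CPM with control LNA (SD, n = 2 libraries each), which did not pass (log2 fold change 0.20, SE 0.08, edgeR adjusted p = 0.130). HSF1 is GC-rich, with 64.7% G or C in its longest transcript, and with GC correction its log2 fold change became -0.19 (edgeR adjusted p = 0.0997). The direction of the HSF1 difference thus depended on this correction. Without GC correction the log2 fold change of HSF1 was 0.22 without LINC01432 LNA library 1 and 0.14 without LINC01432 LNA library 2. The 3 genes whose levels followed those of HSF1 most closely over the 4 libraries, of 9953 compared, were ORAI2, PLEKHM2 and ACAP3, at distances of 0.0106, 0.0121 and 0.0133 in centred log2 CPM. Because they were picked by these same levels, their log2 fold changes had to be like that of HSF1. All 3 lay between 0.19 and 0.20 and were not called in the edgeR fit of all 4 libraries. With GC correction ACAP3 was called lower (-0.26, edgeR adjusted p = 0.0334). Without LINC01432 LNA library 1 all 3 stood at 0.21 to 0.23, which followed from the choice as well.

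The inducible HSP70 genes HSPA1A and HSPA1B lie next to each other in the class III region of the major histocompatibility complex and encode nearly the same protein. HSPA1B (ENSG00000204388, GRCh38 chromosome 6 from 31827735 to 31830255) had 139 and 167 CPM with LINC01432 LNA, against 93.1 and 123 CPM with control LNA. The groups did not overlap, although the control libraries differed from each other by 1.32-fold, more than those of the other 9 members. HSPA1B rose to 153 ± 19.5 CPM with LINC01432 LNA, against 108 ± 21.4 CPM with control LNA (SD, n = 2; log2 fold change 0.50, SE 0.13, edgeR adjusted p = 0.0257). It was not called after GC correction (0.38, edgeR adjusted p = 0.0625), by the DESeq2 Wald test (0.49, adjusted p = 0.200) or without control LNA library 1 (0.29, edgeR adjusted p = 0.496). HSPA1A (ENSG00000204389, chromosome 6 from 31815464 to 31817946) had 36.0 and 42.6 CPM with LINC01432 LNA, against 34.8 and 39.7 CPM with control LNA. Its groups overlapped, and its difference did not pass (log2 fold change 0.08, SE 0.10, edgeR adjusted p = 0.698), nor did the -0.07 after GC correction.

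Counts of this pair cannot be assigned to a copy with certainty. Of the 150-base windows of the longest HSPA1A transcript in GENCODE 29, 67.1% occur without a mismatch in an HSPA1B transcript, and 66.0% of those of HSPA1B occur in HSPA1A. In addition, 36.5% of the exonic bases of HSPA1B overlap a further annotated gene, ENSG00000285565. The labels do not say how reads that match both copies were counted. For the remaining 8 members no such window occurred in a transcript of another gene. Summed to a single row, HSPA1A and HSPA1B had 175 and 209 CPM with LINC01432 LNA, against 128 and 163 CPM with control LNA. The groups did not overlap. The sum rose 1.32-fold, close to the threshold (log2 fold change 0.40, SE 0.12, edgeR adjusted p = 0.0493). It was not called after GC correction (0.25, edgeR adjusted p = 0.155) or without control LNA library 1 (0.22, edgeR adjusted p = 0.697). Within the pair, HSPA1B held 79.4% and 79.6% of the counts with LINC01432 LNA, against 72.8% and 75.6% with control LNA. The 95% Wilson intervals of these shares reached from 78.1% to 80.7% in the LINC01432 LNA libraries and from 71.3% to 76.9% in the controls, and cover counting error only. With 2 libraries against 2, an exact two-sided permutation test cannot go below p = 0.33, which this share reached.

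HSPA8 (ENSG00000109971, chromosome 11 from 123057489 to 123063230), the constitutive HSP70, had 2783 and 2977 CPM with LINC01432 LNA, against 2956 and 2959 CPM with control LNA. The control libraries lay between the LINC01432 LNA libraries. Its difference did not pass (log2 fold change -0.04, SE 0.09, edgeR adjusted p = 0.845), nor did the 0.03 after GC correction. Together the inducible HSPA1A and HSPA1B held 5.92% and 6.57% of the counts of HSPA1A, HSPA1B and HSPA8 with LINC01432 LNA, against 4.15% and 5.22% with control LNA. The means were 6.24 ± 0.459% with LINC01432 LNA and 4.68 ± 0.759% with control LNA (SD, n = 2; exact two-sided permutation p = 0.33, the smallest possible). This share does not depend on how libraries are scaled, but its genes differ in GC content.

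**Figure D2:**
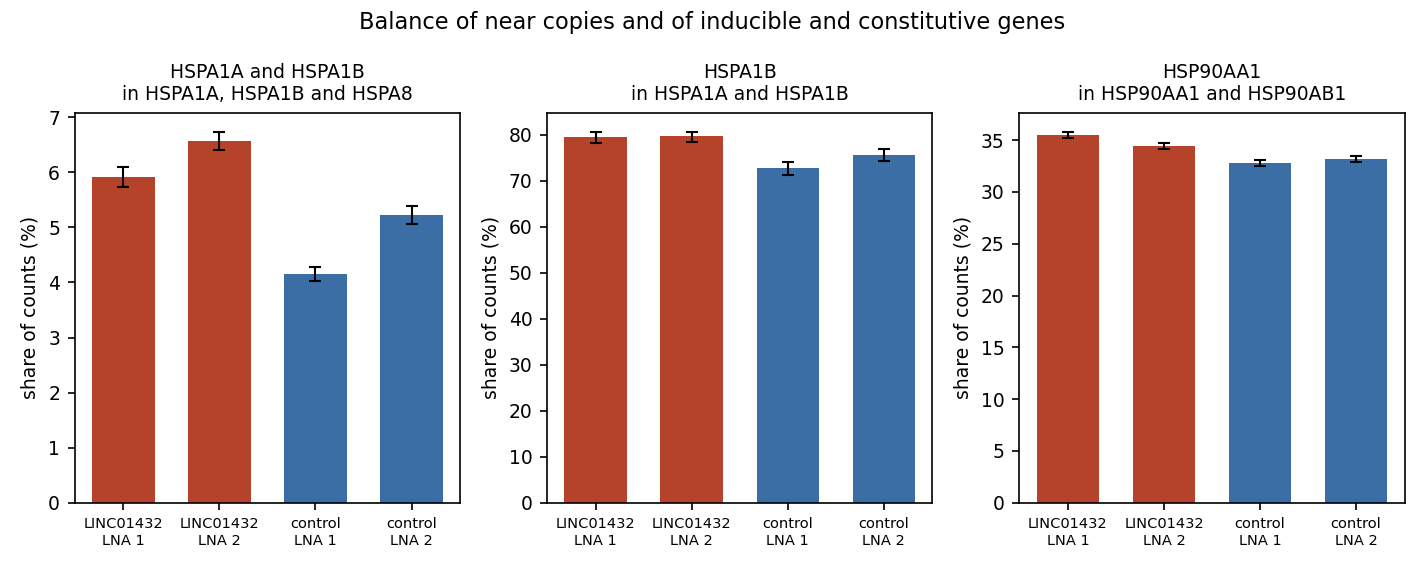
Share of counts in percent in each library: HSPA1A and HSPA1B among HSPA1A, HSPA1B and HSPA8 (left), HSPA1B within its near-identical pair (middle) and HSP90AA1 within the HSP90 pair (right). LINC01432 LNA libraries are red, control LNA libraries are blue, and bars are 95% Wilson intervals of counting error. Every LINC01432 LNA library lay above both controls in the 3 shares, for example 5.92% and 6.57% against 4.15% and 5.22% in the left panel.

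With all 4 libraries none of the 3 co-chaperones that work with HSP70 passed the test in edgeR, where 11.9% of all genes did. None of the 3 had an unadjusted p under 0.05. DNAJB1 (HSP40, chromosome 19 from 14514770 to 14529770), a J-domain protein that delivers clients to HSP70 and starts its ATP hydrolysis, had 226 and 274 CPM with LINC01432 LNA, against 209 and 226 CPM with control LNA. The groups touched at 226 CPM, and the second LINC01432 LNA library stood above the other 3. Its difference did not pass (log2 fold change 0.20, SE 0.10, edgeR adjusted p = 0.233), nor did the 0.19 after GC correction, but it was called without LINC01432 LNA library 1 (0.32, edgeR adjusted p = 1.55e-07). HSPH1 (HSP110, chromosome 13 from 31134974 to 31162388), which exchanges the nucleotide of HSP70 and acts in disaggregation, had 191 and 193 CPM with LINC01432 LNA, against 188 and 197 CPM with control LNA. The LINC01432 LNA libraries lay between the controls, and the difference did not pass (log2 fold change -0.01, SE 0.08, edgeR adjusted p = 0.976). After GC correction it was 0.14 and did not pass. BAG3 (chromosome 10 from 119651370 to 119677819), an exchange factor that links HSP70 and small heat shock proteins to autophagy, had 48.3 and 54.8 CPM with LINC01432 LNA, against 45.3 and 53.8 CPM with control LNA. The groups overlapped, and the difference did not pass (log2 fold change 0.06, SE 0.10, edgeR adjusted p = 0.775), nor did the -0.02 after GC correction.

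With all 4 libraries neither HSP90 gene passed the test in edgeR, where 11.9% of all genes did. Of the pair only the constitutive HSP90AB1 had groups that did not overlap, as had 54.1% of all genes tested. HSP90AB1 (ENSG00000096384, chromosome 6 from 44246166 to 44253888) had 2423 and 2733 CPM with LINC01432 LNA, against 2909 and 2885 CPM with control LNA. Both LINC01432 LNA libraries were below both controls, but they differed from each other by 1.13-fold while the controls differed by 1.01-fold. Its difference did not pass (log2 fold change -0.17, SE 0.09, edgeR adjusted p = 0.303), nor did the -0.12 after GC correction. HSP90AB1 was called lower without LINC01432 LNA library 1 (-0.10, edgeR adjusted p = 0.0326) or library 2 (-0.28, edgeR adjusted p = 6.4e-08). HSP90AA1 (ENSG00000080824, chromosome 14 from 102080738 to 102139699) had 1333 and 1433 CPM with LINC01432 LNA, against 1418 and 1433 CPM with control LNA. Its groups overlapped, and its difference did not pass (log2 fold change -0.04, SE 0.09, edgeR adjusted p = 0.814), nor did the 0.05 after GC correction, but it was called lower without LINC01432 LNA library 2 (-0.12, edgeR adjusted p = 0.0458). HSP90AA1 made up 35.5% and 34.4% of the counts of the HSP90 pair with LINC01432 LNA, against 32.8% and 33.2% with control LNA. The means were 34.9 ± 0.774% with LINC01432 LNA and 33.0 ± 0.294% with control LNA (SD, n = 2; exact two-sided permutation p = 0.33), and the shares of the groups did not overlap.

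HSPB1 (ENSG00000106211, chromosome 7 from 76302544 to 76304295), the small heat shock protein of the set, had 326 and 381 CPM with LINC01432 LNA, against 259 and 269.7 CPM with control LNA. Every LINC01432 LNA library was above every control. HSPB1 rose to 354 ± 38.8 CPM with LINC01432 LNA, against 264 ± 7.86 CPM with control LNA (SD, n = 2; log2 fold change 0.42, SE 0.09, edgeR adjusted p = 0.0123). With 64.3% GC it is, beside HSF1, the most GC-rich member, and GC correction left a difference of 0.05 (edgeR adjusted p = 0.711). Without control LNA library 1 the fold change was 0.37 and without control LNA library 2 it was 0.44, and neither fit called it (edgeR adjusted p = 0.351 and 0.199), with the lone control library assumed to vary like the LINC01432 LNA pair. The processed pseudogene row HSPB1P1 had 14.5 and 15.1 CPM with LINC01432 LNA, against 13.5 and 16.6 CPM with control LNA, and its log2 fold change of -0.02 was not called, nor was the -0.33 after GC correction (edgeR adjusted p = 0.0742).

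**Figure D3:**
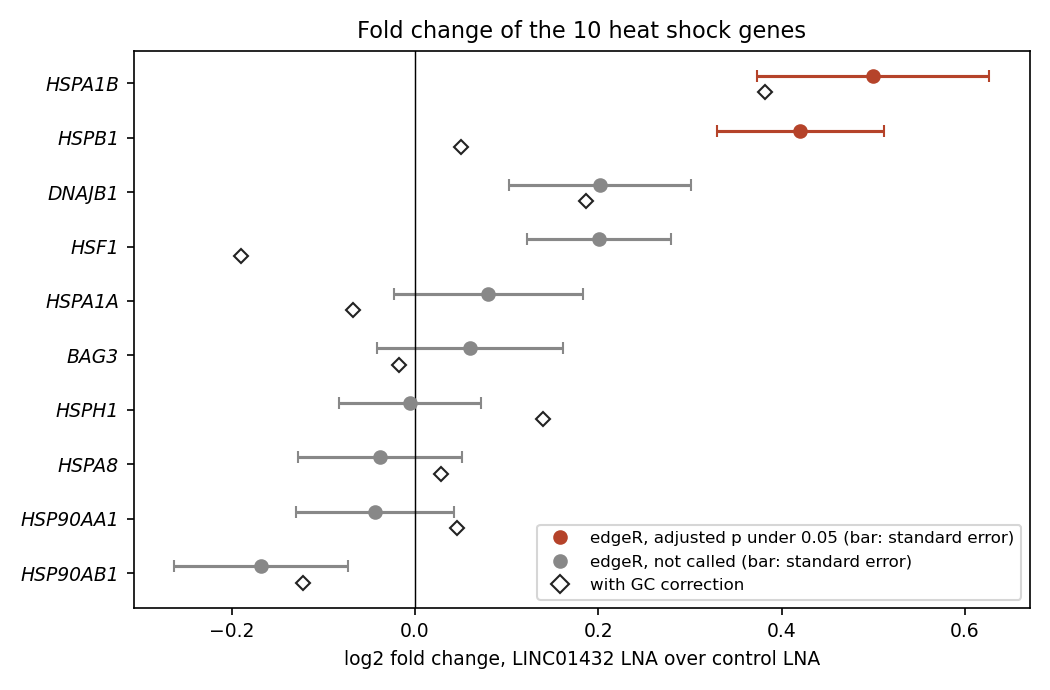
Log2 fold change of each member, LINC01432 LNA over control LNA, with standard errors as bars (circles; red where the adjusted p is under 0.05) and the value after GC correction (open diamonds). HSPB1 lies at 0.42 and at 0.05 after the correction, HSF1 at 0.20 and -0.19, and HSPA1B at 0.50 and 0.38.

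GC content moved with the fold changes of all genes in these libraries. Of the 17060 tested genes with a GC value, the decile with the lowest GC had a median log2 fold change of -0.13 and the decile with the highest GC, from 61.3% upward, had a median of 0.37. HSF1 and HSPB1 belonged to that highest decile, at 0.20 and 0.42. HSPA1A and HSPA1B belonged to the ninth decile, whose median was 0.13, and BAG3 to the eighth. HSP90AB1, HSPA8, HSP90AA1 and HSPH1, which had 48.1%, 47.0%, 45.2% and 40.0% GC, lay in deciles with medians between -0.10 and -0.03. After the correction the medians of the deciles ranged from -0.02 to 0.05. HSPA1B then had the highest log2 fold change of the members, 0.38, and HSF1 the lowest, -0.19.

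**Figure D4:**
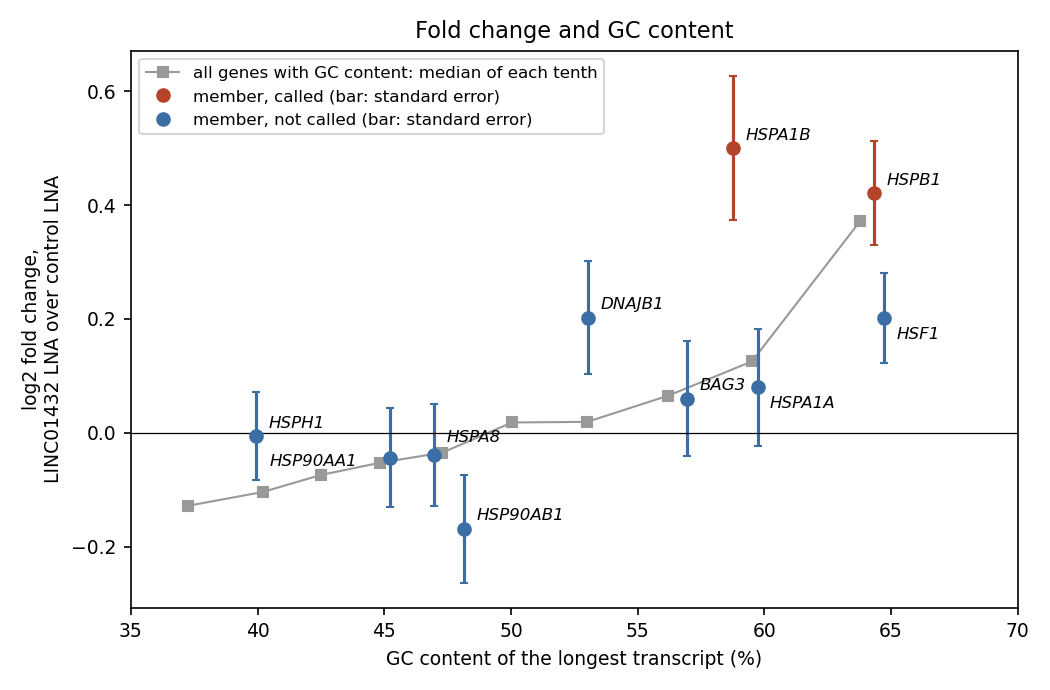
Log2 fold change (LINC01432 LNA over control LNA) against the GC content of the longest transcript in percent, for the 10 members with standard errors (circles, red where called) and for all genes as the median of each GC decile (grey squares). The medians climb with GC content, with -0.13 in the lowest decile and 0.37 in the highest, and HSPA1B at 0.50 stands above the grey line while HSF1 at 0.20 stands below it.

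Levels of different genes were compared per length, as CPM per kilobase of all annotated exons of a gene in GENCODE 29. These exons exceeded the longest transcript unequally, with 4849 against 2463 bases for HSPA8, 5307 against 3451 for HSF1 and 3672 against 2264 for DNAJB1. For HSP90AB1 they came to 2980 against 2674 bases, for HSPH1 to 8390 against 5191, and for HSPA1B both lengths were 2521. The order below was computed with this length only and can differ with another. HSPA8 had more CPM than HSP90AB1 (2880 against 2578 with LINC01432 LNA, 2957 against 2897 with control LNA) and a shorter longest transcript. By that length HSPA8 would stand above HSP90AB1. By all annotated exons HSP90AB1 was the highest, with 865 with LINC01432 LNA and 972 with control LNA. HSPA8 followed with 594 with LINC01432 LNA and 609.9 with control LNA. HSP90AA1 was next at 264 with LINC01432 LNA and 272 with control LNA, and HSPB1 followed at 216 with LINC01432 LNA and 162 with control LNA. DNAJB1 (68.1 with LINC01432 LNA, 59.2 with control LNA), HSPA1B (60.6 with LINC01432 LNA, 42.9 with control LNA) and HSF1 (58.8 with LINC01432 LNA, 51.1 with control LNA) formed a middle group. With LINC01432 LNA the libraries of HSPA1B (55.1 and 66.1) overlapped those of DNAJB1 (61.5 and 74.7) and of HSF1 (57.2 and 60.3), so the place of HSPA1B in that order is not set there. With control LNA the 3 genes did not overlap. HSPH1, BAG3 and HSPA1A were the lowest, between 15.8 and 22.9 with LINC01432 LNA and between 15.0 and 23.0 with control LNA. On these counts the constitutive genes stood far above the inducible HSP70 genes in both groups. Most 150-base windows of HSPA1A and HSPA1B occur in the other copy. Their places in the order therefore depend on how reads that match both copies were counted, which is not stated. HSPA8, HSP90AA1 and HSP90AB1 together held 83.7% and 83.3% of the counts of the 10 members with LINC01432 LNA, against 86.9% and 86.0% with control LNA. All 10 members took 0.803% and 0.827% of a library's gene counts with LINC01432 LNA and 0.837% and 0.847% with control LNA.

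The members did not all lie on the same side of the controls, and neither did the other genes tested. With LINC01432 LNA, 3 of 10 members (HSF1, HSPA1B and HSPB1) were above both controls, 1 (HSP90AB1) was below both and 6 overlapped. Of all genes tested, 54.1% had groups that did not overlap, 28.2% above and 25.9% below. On TMM-scaled levels all 10 members were higher in LINC01432 LNA library 2 than in library 1, and 8 were when scaled by library totals only. The control libraries also differed in this way for 8 members under either scaling. HSF1, HSPA8, HSP90AA1 and HSP90AB1 differed by at most 1.01-fold between the control libraries, and HSPA1B, BAG3 and HSPA1A by at least 1.14-fold. For HSPA1A, the genes with the most similar levels over the 4 libraries were RPS29, TAGLN2P1 and TUBAP2, at distances of 0.00989, 0.0148 and 0.0285.

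Processed pseudogenes of the abundant chaperones also had counts. Rows named as pseudogenes of HSPA8 held together 3.19% and 3.26% of the counts of HSPA8 with LINC01432 LNA, against 2.87% and 3.03% with control LNA. Those of HSP90AA1 came to 5.46% and 5.62% of its counts with LINC01432 LNA, against 4.88% and 5.48% with control LNA. Those of HSP90AB1, of which HSP90AB3P was the highest, came to 2.78% and 2.72% with LINC01432 LNA, against 2.31% and 2.82% with control LNA. The rows of HSP90AA1 and HSP90AB1 pseudogenes were added to the naming rule after their values were seen. HSPA8P1 had 31.6 and 36.5 CPM with LINC01432 LNA, against 31.2 and 35.1 CPM with control LNA, and HSP90AA2P had 53.6 and 59.6 CPM with LINC01432 LNA, against 50.5 and 58.0 CPM with control LNA. No pseudogene row of a member with at least 1 CPM was called by edgeR as designed or with GC correction alone. Those fits called 11.9% and 10.1% of all genes. Whether the counts of the pseudogene rows are transcripts of the pseudogenes or reads of the parent genes was not tested.

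Around the set, 10 lists of chaperones, co-chaperones and HSF1 targets were examined, with 116 distinct genes outside the set. Of the 103 tested, 8 rose and 3 fell, while 92 missed the threshold. Their median log2 fold change was -0.01, against 0.01 for all genes. The count is read against 7.5% of all genes called higher and 4.37% called lower. Among other targets of HSF1, 3 of 21 rose and 18 did not pass (median 0.01): IER5L, IER5 and DEDD2. IER5, an immediate early gene whose product activates HSF1, had 69.3 and 73.3 CPM with LINC01432 LNA, against 46.6 and 47.4 CPM with control LNA. It rose 1.52-fold (log2 fold change 0.60, SE 0.08, edgeR adjusted p = 0.000678), and was at 0.62 on the log2 scale after GC correction. IER5L, a relative of IER5, had 10.4 and 10.4 CPM with LINC01432 LNA, against 3.71 and 4.24 CPM with control LNA (2.62-fold, edgeR adjusted p = 0.000118). It is GC-rich and 39.2% of its exonic bases overlap another gene, and it was still called with GC correction, at 0.98 on the log2 scale in place of 1.39. DEDD2, a death effector domain protein, rose 1.26-fold (edgeR adjusted p = 0.0464), with 27.5 and 31.9 CPM with LINC01432 LNA against 23.4 and 24.0 CPM with control LNA. It was not called after GC correction (0.04 on the log2 scale), by DESeq2, by limma-voom or without LINC01432 LNA library 2 (0.20, edgeR adjusted p = 0.131), control LNA library 1 (0.29, edgeR adjusted p = 0.457) or control LNA library 2 (0.34, edgeR adjusted p = 0.308).

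**Figure D5:**
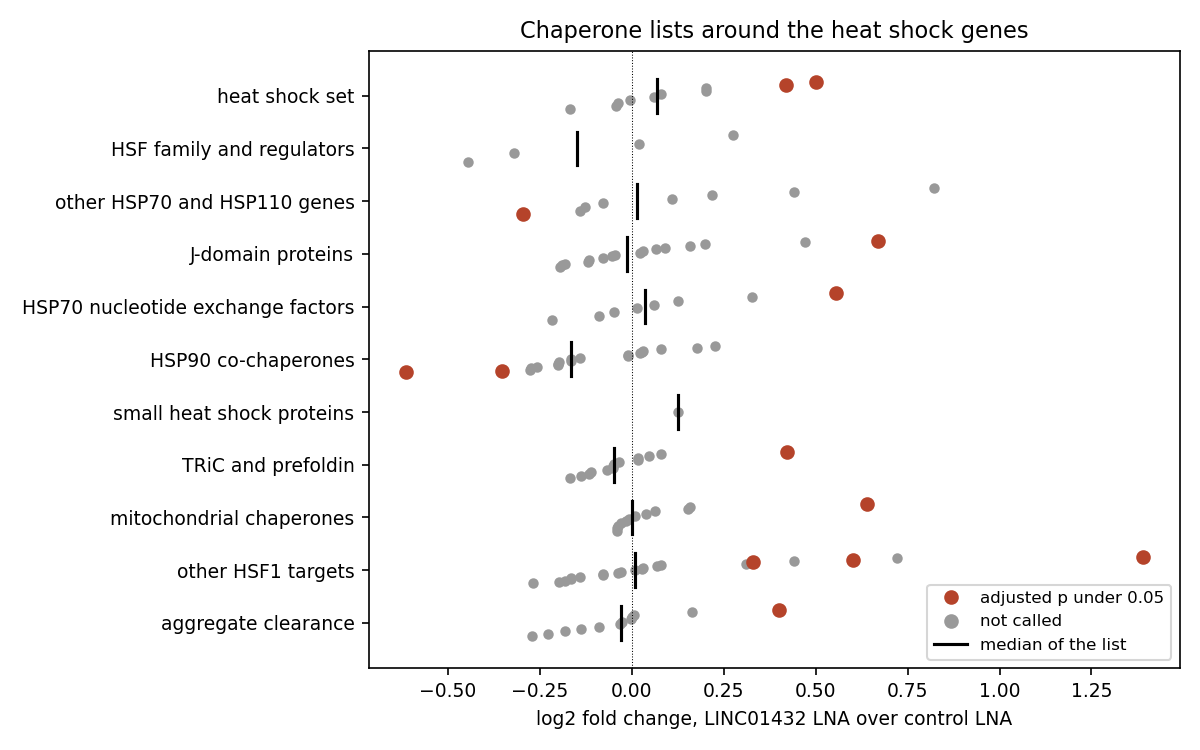
Log2 fold change (LINC01432 LNA over control LNA) of each tested gene in the heat shock set and the 10 lists around it, with called genes in red and the median of each list as a black bar. IER5L at 1.39 is the rightmost point and FNIP2 at -0.61 the leftmost, and the medians lie between -0.16 and 0.13.

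Other HSP70 family genes and the J-domain proteins were mostly not called, as were most genes tested (11.9% of all genes were called in either direction). Of 8 further HSP70 and HSP110 genes, 1 fell and 7 did not pass (median 0.01). HSPA13, an HSP70 relative found at microsomes, had 37.8 and 36.1 CPM with LINC01432 LNA, against 46.8 and 43.9 CPM with control LNA (log2 fold change -0.30, edgeR adjusted p = 0.0407), and was not called after GC correction (-0.10), without control LNA library 1 (-0.27, edgeR adjusted p = 0.505) or without control LNA library 2 (-0.35, edgeR adjusted p = 0.229). HSPA6, the most strictly heat-inducible HSP70 of human cells, had 5.69 and 6.38 CPM with LINC01432 LNA, against 3.54 and 5.46 CPM with control LNA. Its groups did not overlap, and its difference did not pass (log2 fold change 0.44, SE 0.20, edgeR adjusted p = 0.190). The log2 fold change of HSPA6 was 0.13 without control LNA library 1 and 0.76 without control LNA library 2. HSPA2, in the same list, had a larger difference that did not pass either (log2 fold change 0.82, edgeR adjusted p = 0.0681). HSPA6 and HSPA2 lie outside the naming rule and were chosen after their values were seen. Of 16 J-domain proteins, 1 rose and 15 did not pass (median -0.01). With GC correction 2 of them were called higher, against 5.76% of all genes. The gene that rose without the correction was DNAJC9, a co-chaperone that also binds histones (1.59-fold, edgeR adjusted p = 0.00341). Of its exonic bases, however, 29.1% overlap FAM149B1. Of 8 nucleotide exchange factors and related regulators, 1 rose and 7 did not pass (median 0.04). It was STUB1 (CHIP), the ubiquitin ligase that marks HSP70 and HSP90 clients for degradation, with 76.0 and 85.8 CPM with LINC01432 LNA, against 54.6 and 55.7 CPM with control LNA (1.47-fold, edgeR adjusted p = 0.00182). Of its exonic bases 42.4% overlap JMJD8, and it was not called with GC correction, at 0.14 on the log2 scale. With that correction 0 of the exchange factors and related regulators were called higher and 1 lower, against 5.76% and 4.31% of all genes.

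Among HSP90 co-chaperones 2 of 19 fell in edgeR while 17 did not pass (median -0.16), against 4.37% of all genes called lower. At an unadjusted p under 0.05, edgeR had 7 lower and 0 higher, and 4 lower and 1 higher after GC correction. DESeq2 and limma-voom each called 3 lower, against 3.43% and 4.31% of all genes. The genes that fell in edgeR were FNIP2 and TSC1, which are known as HSP90 co-chaperones and as regulators of mTORC1. FNIP2 had 15.2 and 13.5 CPM with LINC01432 LNA, against 23.0 and 20.8 CPM with control LNA (log2 fold change -0.61, edgeR adjusted p = 0.00311). TSC1 had 45.4 and 40.5 CPM with LINC01432 LNA, against 54.6 and 54.9 CPM with control LNA (log2 fold change -0.35, edgeR adjusted p = 0.0212). Both were also called after GC correction, but TSC1 was not called without control LNA library 1 (-0.37, edgeR adjusted p = 0.222) or library 2 (-0.36, edgeR adjusted p = 0.218). Of 4 tested heat shock factors and their binding proteins none was called by edgeR, DESeq2 or limma-voom. These tools called 11.9%, 8.68% and 11.6% of all genes in either direction. Of the 4 genes, 0 had an unadjusted p under 0.05 in edgeR. HSBP1, which binds HSF1 trimers and lowers their activity, had 4.61 and 5.15 CPM with LINC01432 LNA, against 6.18 and 6.03 CPM with control LNA (log2 fold change -0.32, edgeR adjusted p = 0.202), and HSBP1L1 had a log2 fold change of -0.45 (edgeR adjusted p = 0.388).

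Counts of called genes in other chaperone systems are read against 7.5% of all genes called higher and 4.37% called lower. Of 14 subunits of the chaperonin TRiC and of prefoldin, 1 rose and 13 did not pass (median -0.05). The prefoldin subunit PFDN2 rose 1.34-fold (edgeR adjusted p = 0.0203) and was also called after GC correction, but not without control LNA library 1 (0.37, edgeR adjusted p = 0.253) or library 2 (0.44, edgeR adjusted p = 0.114). Of 12 mitochondrial chaperones and proteases, 1 rose and 11 did not pass (median 0.00): CLPP, the proteolytic subunit of a matrix protease, rose 1.56-fold (edgeR adjusted p = 0.00120), and was also called with GC correction, at 0.27 on the log2 scale in place of 0.64. Of 12 autophagy receptors and VCP partners, OPTN, a receptor for ubiquitinated cargo, rose 1.32-fold (edgeR adjusted p = 0.0162) and 11 did not pass (median -0.03). OPTN was not called without control LNA library 1 (0.30, edgeR adjusted p = 0.445) or library 2 (0.47, edgeR adjusted p = 0.0699). Of 9 small heat shock genes listed outside the set, 8 were matched by symbol and only HSPB7 was abundant enough to test, at 2.38 and 2.06 CPM with LINC01432 LNA against 1.68 and 2.40 CPM with control LNA (log2 fold change 0.13, edgeR adjusted p = 0.814). HSPB2, HSPB3 and CRYAA had 0 counts in each library, where a count of 3 was worth 0.103 to 0.144 CPM.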

How the data were processed

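RNA of 4 RPMI 8226 libraries was sequenced as 150 bp paired-end reads, per the design text of the series. The library protocol names ribosomal RNA removal, whereas the design text names poly(A) selection. The authors deposited whole-number counts per gene. STAR 2.7.11b, featureCounts 2.0.8, Salmon 1.10.0 and GRCh38 are named, without roles, per the submitters' processing notes. The sources used here do not give the annotation release or the strand setting, so reads of overlapping or near-identical genes may be split or pooled.

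Groups and replicate numbers come from sample titles. Rows of 92 ERCC and 5 transgene sequences were left out. The libraries held 20873393 to 29161298 gene counts. Counts were tested with edgeR 4.0.16 (R 4.3.3; TMM, filterByExpr with minimum count 10 and total 15, quasi-likelihood F test, group only) over 18680 genes. The Benjamini-Hochberg threshold was 0.05. Standard errors come from the F statistic. Symbols were looked up by Ensembl ID, and positions, lengths, GC content and exon overlap from GENCODE 29 (GRCh38). GC correction subtracted from each library a lowess trend (span 0.3) of log2 CPM (prior count 2) on GC content, as edgeR offsets. DESeq2 1.42.0, limma 3.58.1 (voom) and other scalings, filters and left-out libraries were alternatives. The fit was tested on simulated data.

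The text names the 10 members, LINC01432, per list up to 4 called genes by smallest p (otherwise 2 genes), pseudogene rows of at least 1 CPM, and the 3 genes nearest to HSF1 and to HSPA1A in centred log2 CPM (offset 0.1, mean of at least 5 CPM). Members and lists were chosen with earlier results of these data known.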

Additional observations from a re-analysis of the deposited data

How the results depend on the processing

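Between libraries of a group, counts differed by more than counting error (chi-square per degree of freedom 12.2 for LINC01432 LNA and 3.79 for control LNA), so the 2 libraries per group, not depth, limit abundant members. The designed edgeR fit called 2218 genes, 2 members and 11 pathway genes. Leaving out each library in turn gave 766 to 5228 genes, 0 to 5 members, 7 to 38 pathway genes and log2 fold changes of 0.22 to 0.58 for summed HSPA1A and HSPA1B. The differences in share were 1.42 to 2.51 percentage points for HSP90AA1 and 1.02 to 2.09 for the inducible HSP70 genes. In each such fit the lone library's group took its spread from the other pair. No member was called without control LNA library 1 (0), and HSPA1B alone (1) without control LNA library 2, against 3.82% and 5.27% of all genes. Without LINC01432 LNA library 1, 5 members were called (HSF1, HSPA1B, DNAJB1 and HSPB1 higher, HSP90AB1 lower), against 26.4% of all genes. Without library 2, 5 were called (HSF1, HSPA1B and HSPB1 higher, HSP90AA1 and HSP90AB1 lower), against 21.6%. DESeq2 called 1 member, HSPB1. The sum of HSPA1A and HSPA1B was 0.39 with median-of-ratios size factors (edgeR adjusted p = 0.0647) and 0.39 with library totals (edgeR adjusted p = 0.0546), and was not called. GC correction called 0 members, put the sum at 0.25, and turned the direction of HSF1 (-0.19), HSPA1A (-0.068), HSPA8 (0.028), HSPH1 (0.14), HSP90AA1 (0.046), BAG3 (-0.017) and HSPB7 (-0.014). HSPH1 was also positive with a 1 CPM filter (0.010). Leaving out libraries turned HSPA1A (-0.065 to 0.18), HSPH1 (-0.057 to 0.017), BAG3 (-0.079 to 0.18) and HSPB7 (-0.14 to 0.38). The cause of these changes was not tested. Over the other values, 311 kept their direction and side of the threshold, 7 passed it newly and 37 no longer passed.

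Replicate numbers in the titles give no shared culture, batch or day. Deviations of same-numbered libraries correlated at 0.135 over genes, with 2 pairs only. With the replicate number as a block, 3862 genes and 23 pathway genes were called. With the block and GC correction together, 3753 genes and 23 pathway genes were called, and 3 of 10 members, against 20.1% of all genes: HSF1, which was lower (-0.19), HSPA1B and DNAJB1. The pseudogene row HSPB1P1 was also called lower in that fit (-0.34, edgeR adjusted p = 0.00261). The members turned in direction by GC correction were at -0.071 (HSPA1A), 0.027 (HSPA8), 0.14 (HSPH1), 0.045 (HSP90AA1) and -0.017 (BAG3) in that fit, and HSPB7 was at -0.017.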
